A study of Drosophila melanogaster with 2 samples.

Results

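Socs36E, dome and Stat92E are genes of the JAK/STAT pathway at which the fly transcription factor STAT92E can act back on its own signal. The peaks examined are those in the deposited STAT92E ChIP-Seq peak list whose chromosome, start and end equal the intervals that the study's table of selected targets ties to these genes. All 8 such intervals were in the list of 1487 peaks, with 5 at Socs36E, 1 at dome and 2 at Stat92E. The table was drawn from called peaks, so the presence of these peaks in the list is not a result. The list names no gene, and further peaks near these genes would not have been counted.

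In this pathway, secreted Upd ligands bind the receptor Domeless (dome), the kinase Hopscotch is activated, and phosphorylated STAT92E dimers enter the nucleus and bind DNA. Socs36E, a member of the suppressor of cytokine signaling family, is induced by the pathway and lowers its activity, which makes it a negative feedback inhibitor. In the adult midgut, JAK/STAT signaling acts in the intestinal stem cells and their daughter enteroblasts, which together are the progenitors that renew the epithelium.

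The data came from adult flies of the W1118 background that carried esg-Gal4 with Gal80ts (esgts), which is active in the midgut progenitors, and were kept at 29°C for 10 days so that the driver expressed Upd together with STAT92E. About 400 midguts, without hindgut and Malpighian tubules, were cross-linked, and the chromatin was precipitated with a mouse antibody raised against part of STAT92E to give 1 ChIP library. The control was 1 input library of the same genotype and treatment, without antibody. Both libraries thus carried the Upd and STAT92E transgenes, no library without them was analysed, and the tissue also held enterocytes and other cells in which the driver is not active. A peak list holds no expression values, so the tissue was not checked against marker genes. With 1 library of each kind there was no replicate, and no test between groups was possible.

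The normalized reads of each peak are listed for both libraries. Of the columns, M stands here for ChIP, by the antibody from mouse, and I for input, a reading that no source states outright. The values ran in regular steps, and if 16 steps make a read, 1 ChIP read counted as 1 and 1 input read as 0.582. The input counts behind a fold were derived in this way. The 95% intervals below, of folds and of shares of reads, cover counting error only. They treat the reads of an amplified library as independent and say nothing of the variation between experiments. Those of folds are exact intervals of the read counts. The depth of the libraries is unknown, because the list gives no totals. All positions are in the dm3 build.

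Socs36E, the inhibitor, had its 5 peaks on 2L within 10620 bp. They are numbered here by position. Peak 1, from 18140260 to 18140469, lay in the third intron in the study's annotation, and the other 4 lay in the first intron. These 4 ran from 18143400 to 18143619 (peak 2), from 18144360 to 18144599 (peak 3), from 18148850 to 18149199 (peak 4) and from 18150700 to 18150879 (peak 5).

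Peak 4 of Socs36E had 1420.2 normalized reads in the ChIP library, against 19.0 in the input. Peak 3 had 329.9 reads in the ChIP library, against 3.20 in the input. Peak 1 had 310.4 reads in the ChIP library, against 5.56 in the input. These were the stronger peaks of the gene by ChIP reads. The lowest log2 ratio of ChIP to input listed for any of the 1487 peaks was 4.69. A ChIP value far above the input is thus shared by every listed peak and is not a result for these genes. In peak 2 the ChIP library held 109.9 reads and the input 0.727. In peak 5 the ChIP library held 89.1 reads and the input 0.655. The strongest peak thus held 15.9 times the ChIP reads of the weakest peak of the same gene. Peak 4 alone held 62.9% of the ChIP reads in the Socs36E peaks (Wilson 95% interval 60.8% to 64.8%) and 65.2% of their input reads.

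The receptor gene dome had its peak on X, from 19577210 to 19577429, in the 5′ UTR in the study's annotation. It had 644 normalized reads in the ChIP library, against 17.6 in the input. Of the 8 peaks, only peak 4 of Socs36E had more reads, in the ChIP library as well as in the input.

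Stat92E, which encodes the precipitated transcription factor itself, had both of its peaks in the first intron on 3R. Peak 2, from 16376070 to 16376269, had 368 normalized reads in the ChIP library, against 8.58 in the input. Peak 1 spanned 16368450 to 16368579, held 67.2 normalized ChIP reads and 0.945 normalized input reads, and was the weakest of the 8 peaks by ChIP reads. Peak 2 held 84.5% of the ChIP reads of the gene (Wilson 95% interval 80.9% to 87.7%).

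**Figure D1:**
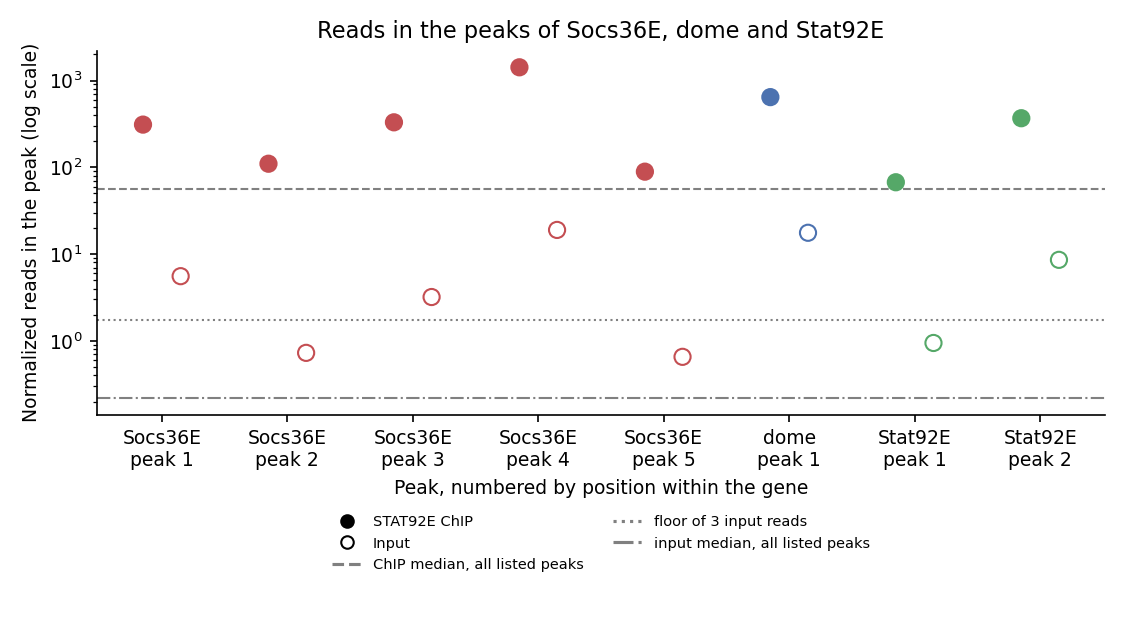
Normalized reads in each of the 8 peaks on a log scale, with filled points for the STAT92E ChIP library and open points for the input library. All 8 ChIP values lie above the median of all listed peaks (56.9 reads), and the input points of 3 peaks lie under the floor of 3 input reads (1.75 normalized reads).

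The median of the ChIP reads was 320.2 over the 8 peaks (67.2 to 1420.2), against 56.9 over all listed peaks and 122 over the other 51 peaks of the target table. Of the 8 peaks, 5 belong to Socs36E and are not separate cases. Medians and counts over the 8, here and below, are therefore weighted to that gene and are a description only. By ChIP reads, 5 of the 8 peaks were among the first 148 of the list, which are 9.95% of all peaks. They were 3 peaks of Socs36E, the dome peak and peak 2 of Stat92E. Peak 4 of Socs36E was at rank 8 of 1487 by ChIP reads, the dome peak at rank 13 and peak 2 of Stat92E at rank 23. Peaks 3 and 1 of Socs36E were at ranks 27 and 28. The other 3 peaks had lower ranks, between 218 and 565.5.

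The input was high in the same peaks. More than 3 input reads were found in 5 of the 8 peaks, against 8.88% of all listed peaks, and these were the same 5 peaks. No peak of the 3 genes was without an input read, whereas 38.3% of all listed peaks were. The median of the normalized input reads was 4.38 over the 8 peaks and 0.218 over the list. It was 1.6 over the other 51 peaks of the target table. By input reads, peak 4 of Socs36E was at rank 8, the dome peak at rank 9 and peak 2 of Stat92E at rank 14. Per 100 bp of peak, the dome peak had 8.0 normalized input reads and peak 4 of Socs36E had 5.42, against a list median of 0.152. The part of this input in the number of ChIP reads was not tested.

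The fold of ChIP over input was set side by side for the inhibitor, the receptor and the transcription factor, with the reads of each gene summed over its peaks. The summed reads of Socs36E were 2259.6 for ChIP and 29.1 for input, which gave a 77.6-fold enrichment (95% interval 58.6 to 105). Those of Stat92E were 435.0 for ChIP and 9.53 for input, or 45.7-fold (27.9 to 80.02). For dome the enrichment was 36.6-fold (25.4 to 54.6). The fold of Socs36E was 2.12 times that of dome, with an exact 95% interval of 1.28 to 3.41 for this ratio. It was 1.70 times that of Stat92E (0.875 to 3.00), and the fold of Stat92E was 1.25 times that of dome (0.659 to 2.52). The interval left out 1 only for the pair of Socs36E and dome, and the others were too wide to order Stat92E beside either gene. Across the 23 genes of the target table with more than 3 input reads, the median fold was 62.5 (36.6 to 340.2). By point value, the lowest of these was dome and the next lowest was Stat92E. Their intervals overlap those of other genes, such as pnt with 47.8-fold (36.0 to 64.6), and this order was not tested.

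The same comparison was made for single peaks. Among the peaks with more than 3 input reads, peak 3 of Socs36E had 103-fold enrichment (95% interval 45.4 to 299), peak 4 had 74.8-fold (52.9 to 109) and peak 1 had 55.8-fold (29.5 to 119.8). Peak 2 of Stat92E had 42.9-fold enrichment (25.5 to 77.8). Of the 10 pairs among these peaks and the dome peak, the ratio of the folds had an interval that left out 1 in 2. Both pairs set a Socs36E peak against dome, with ratios of 2.82 for peak 3 (1.03 to 7.60) and 2.05 for peak 4 (1.17 to 3.42). These intervals were not adjusted for the number of pairs. The folds of peaks 1, 3 and 4 of Socs36E were not separable at this depth, although their ChIP reads differed by over 4-fold between peak 4 and the others. Over the 132 listed peaks with more than 3 input reads, the median fold was 52.6 (quartiles 44.0 and 62.5, lowest 30.4). The dome peak and peak 2 of Stat92E were under the lower quartile. Peak 1 of Socs36E lay between the quartiles, and its peaks 3 and 4 lay above them. These places are of point values, whose intervals are given above.

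For the 3 peaks with 1 to 3 input reads the fold is poorly fixed. It was 151 for peak 2 of Socs36E (95% interval 30.8 to 3218), 136 for peak 5 (25.8 to 3832) and 71.1 for peak 1 of Stat92E (16.8 to 858). The intervals overlap those of the stronger peaks, and no order can be read from these values.

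**Figure D2:**
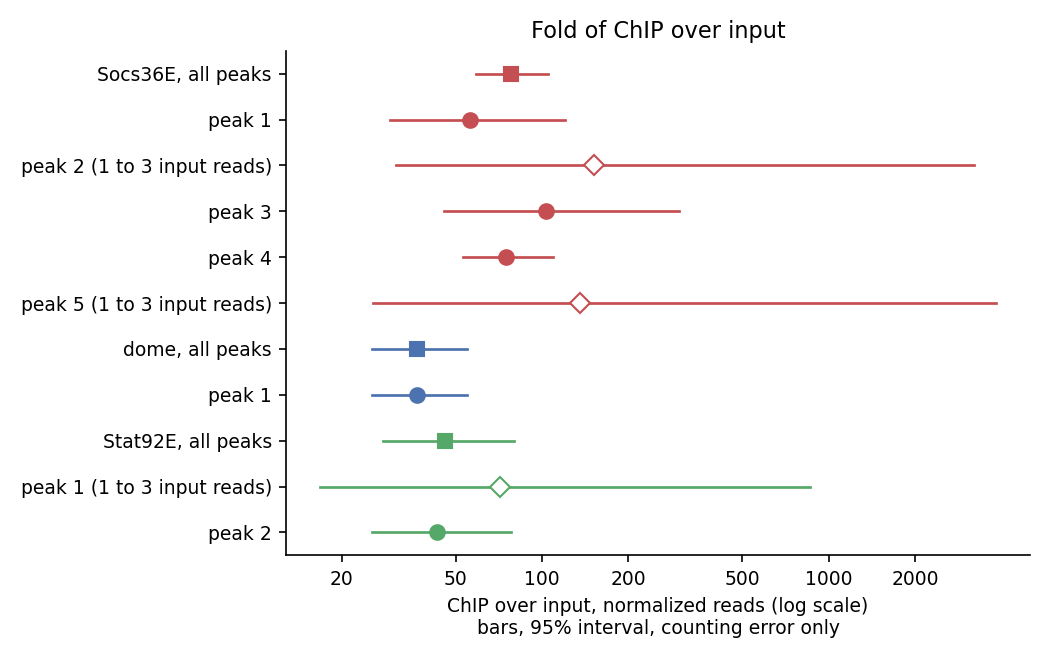
Fold of ChIP over input in normalized reads on a log scale, with squares for the summed peaks of a gene, circles for peaks with more than 3 input reads and open diamonds for peaks with 1 to 3 input reads. Bars are 95% intervals for counting error only, and those of the open diamonds reach from 16.8 to 3832.

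The authors ordered the list by a test statistic, which was placed in every peak at the position of the largest log2 ratio between the libraries. By this order 2 of the 8 peaks, peaks 3 and 4 of Socs36E at ranks 30 and 43, were among the first 9.95% of the list. Their listed log2 ratios were 6.71 and 6.57. Peaks 5, 2 and 1 of Socs36E had log2 ratios of 6.005, 5.998 and 5.75, all above the list median of 5.35. At Stat92E peak 2 had 5.39 and peak 1 had 5.19, and the dome peak had 5.25. The listed values of the Socs36E peaks were thus above those of dome and Stat92E. Only the dome peak and peak 1 of Stat92E were under the list median. The listed ratios carry no interval, and peaks 2 and 5 of Socs36E rest on 1 to 3 input reads. For peak 1 of Socs36E, the ratio of whole-peak folds had an interval that held 1. It was 0.676 to 3.35 against dome and 0.522 to 3.19 against peak 2 of Stat92E. The dome peak stood at rank 891 by the listed ratio and at rank 13 by ChIP reads, the widest separation of the 2 ranks among the 8 peaks.

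At dome the listed ratio was 37.97, with 644 ChIP reads over one of the highest inputs of the list. In the 5 peaks with more than 3 input reads, the fold over the whole peak was 0.787 to 1.04 times the listed ratio. The median of this quotient over the 132 listed peaks with as many input reads was 1.304. Among the 5 peaks it was lowest at peak 4 of Socs36E, where the listed ratio was 95.05 and the whole-peak fold 74.8.

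The listed FDR was 0 for all 8 peaks, as it was for 70.5% of the list. The -log10 of the smallest Poisson p stood at 100, the upper limit of the column, in 6 of the 8 peaks, against 27.0% of all peaks. The exceptions were peak 2 of Socs36E at 86.6 and peak 1 of Stat92E at 84.4. The column therefore does not rank the 6 peaks among themselves.

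**Figure D3:**
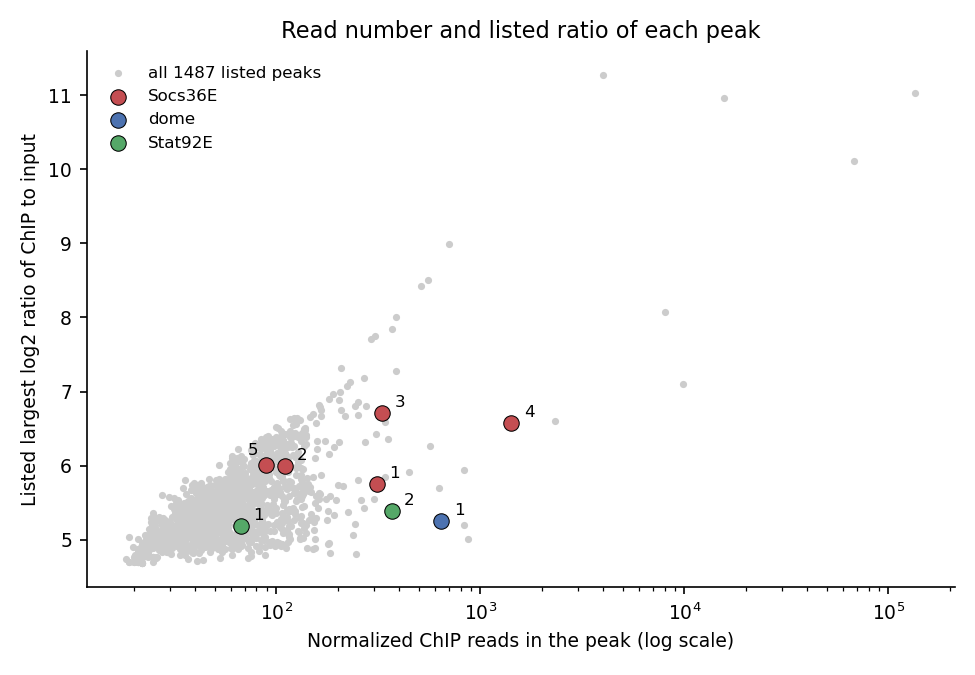
Normalized ChIP reads in the peak (log scale) against the listed largest log2 ratio for all 1487 peaks in grey, with the peaks of Socs36E, dome and Stat92E in color and numbered by position. The dome peak has 644 reads at a log2 ratio of 5.25, below all 5 Socs36E peaks on the ratio axis and right of 4 of them.

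The peaks of the 3 genes differed in spacing. Between neighbouring Socs36E peaks, the gaps were 2930 bp from peak 1 to peak 2, 740 bp from peak 2 to peak 3, 4250 bp from peak 3 to peak 4 and 1500 bp from peak 4 to peak 5. No other listed peak lay between them. On the outside, the next listed peaks were 111610 bp away toward lower positions and 192260 bp away toward higher positions, so the 5 peaks formed an isolated group. The peaks of Stat92E were separated by 7490 bp, again with no listed peak between them. The next listed peak lay 14090 bp beyond peak 2, with 55.9 ChIP reads, and the nearest on the other side was 74130 bp away. The dome peak had its nearest listed neighbour 15420 bp away, with 88.2 ChIP reads against 2.18 in the input, and its next on the other side 126660 bp away.

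A listed peak within 5 kb was found for 5 of the 8 peaks, all at Socs36E, against 14.0% of the 1202 peaks on the chromosome arms. These 5 peaks are each other's neighbours and were chosen together by gene. They are a single group and not separate cases, so their number is a description only. The median distance to the nearest listed peak was 29365 bp on the arms. Of all arm windows of 10620 bp that start at a peak, the Socs36E window was the only one with 5 peaks, and none had more. The length of this window was taken from the Socs36E peaks, so this count is a description. When arm peaks were joined within 5 kb, 1112 groups resulted. Socs36E was the only group of 5 or more peaks and the third by summed ChIP reads. When peaks were joined within 20 kb, Socs36E kept its 5 peaks and was 1 of 4 groups of that size or larger among 932. Within 50 kb it still had 5 peaks, and 23 of 684 groups had 5 or more. At 20 kb the dome peak was joined by 1 neighbouring peak and the Stat92E peaks by 1, none of which is tied to a gene in the target table.

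**Figure D4:**
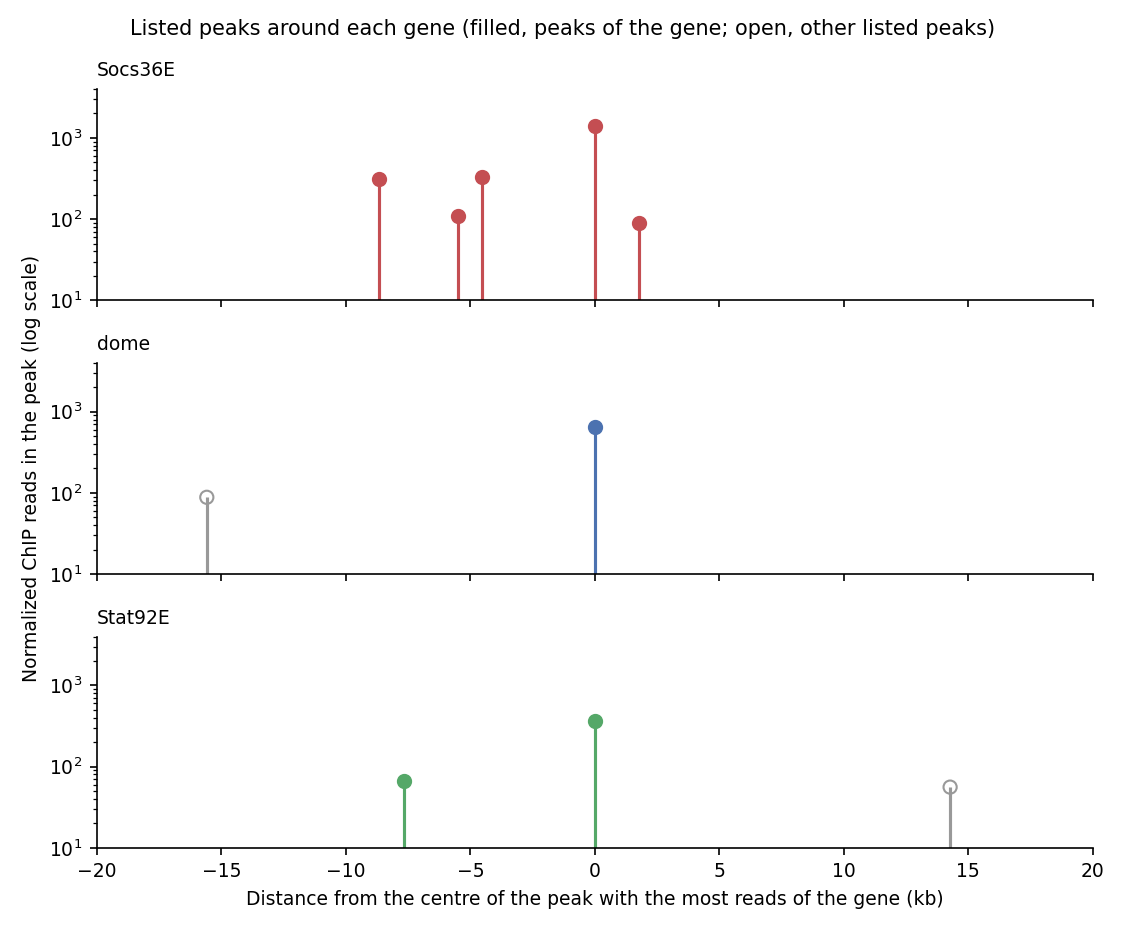
Listed peaks within 20 kb of the strongest peak of each gene, with distance in kb on the horizontal axis and normalized ChIP reads on a log scale on the vertical axis. Filled points are the peaks of the gene and open points are other listed peaks. At Socs36E, 5 filled points fall within 10620 bp. At dome there is 1 filled point, with an open point for the listed peak 15420 bp away. At Stat92E, 2 filled points stand 7490 bp apart, with an open point for the listed peak 14090 bp beyond peak 2.

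In gene order, which was read from a Release 6 gene table without its positions, dome is next to et (eye transformer), which encodes a short Domeless-related receptor known to dampen JAK/STAT signaling. Socs36E lies between kel and CG17681, and Stat92E between MtnD and DPCoAC. The listed peaks outside the 3 genes were not assigned to any of these neighbours.

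The lengths were 350, 240, 220, 210 and 180 bp at Socs36E (peaks 4, 3, 2, 1 and 5), 220 bp at dome, and 200 and 130 bp at Stat92E (peaks 2 and 1). A length of 200 bp or more was reached by 6 of the 8 peaks, against 20.4% of the list, whose median was 150 bp. The median length was 215 bp over the 8 peaks and 190 bp over the other 51 peaks of the target table. The ChIP reads per 100 bp were 406 in peak 4 of Socs36E, 293 in the dome peak, 184 in peak 2 of Stat92E, and 148 and 137 in peaks 1 and 3 of Socs36E, against a list median of 37.5. The other 3 peaks were close to each other, with 51.7 in peak 1 of Stat92E and 49.97 and 49.5 in peaks 2 and 5 of Socs36E. By this density the same 5 peaks as by ChIP reads were among the first 9.95% of the list. The median density was 143 over the 8 peaks and 66.3 over the other 51 peaks of the target table.

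Within each peak, the list gives a summit, a left and a right boundary, and the position of the largest ratio. Distances are given from the middle of the peak and are negative toward lower positions. The summit lay at -7.5 bp in peak 1 of Socs36E, at -12.5 bp in peak 4 and at -32.5 bp in peaks 2 and 5. In peak 3 of Socs36E it lay at 52.5 bp, and in the dome peak at 27.5 bp. At Stat92E it lay at -12.5 bp in peak 2 and at -62.5 bp in peak 1, where it was 2 bp from the start of the interval. The summit was within 10 bp of an end in 1 of the 8 peaks, near the 15.7% of all listed peaks. A summit below the middle was thus seen in 6 of the 8 peaks, near the 71.8% of all listed peaks. The largest ratio was found above the middle in 5 of the 8 peaks, against 40.8% of all peaks. Summit and largest ratio were 2 bp apart in peak 1 of Socs36E, the smallest distance in the list, and 32 to 83 bp apart in the other 7 peaks, where the list median was 37 bp.

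The boundary width, the listed distance from the left to the right boundary, was 106 bp in peak 2 of Stat92E, wider than in 98.1% of the list. A width below 0 was listed for 4.03% of all peaks and for none of the 8, so the column is not a plain measure of peak width. At Socs36E the boundary width was 76 bp in peaks 2 and 3, 61 bp in peak 4, 51 bp in peak 1 and 21 bp in peak 5. It was 41 bp at dome and 21 bp in peak 1 of Stat92E, against a list median of 26 bp. The median width was 56 bp over the 8 peaks and 46 bp over the other 51 peaks of the target table. The left boundary was within 10 bp of the start of the interval in 2 of the 8 peaks, peak 5 of Socs36E and peak 1 of Stat92E. This was so in 61.7% of all listed peaks. The weakest peak of Socs36E and the weakest of Stat92E thus shared the narrowest width of the 8 and a boundary at the edge.

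**Figure D5:**
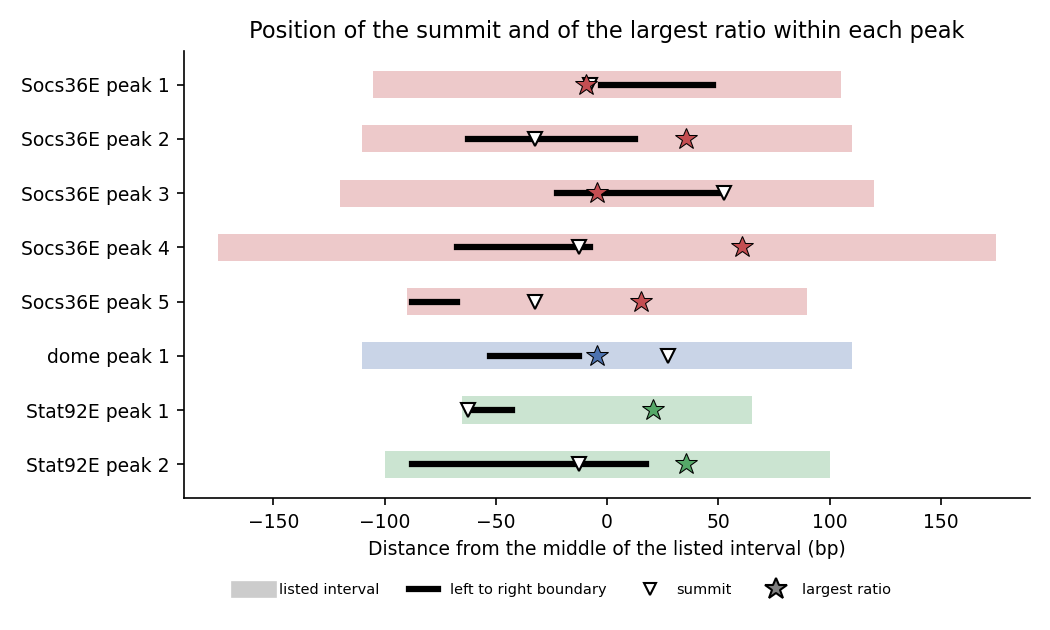
Shape of the 8 peaks, with distance from the middle of the listed interval in bp on the horizontal axis. Pale bars are the listed intervals, black lines run from the left to the right boundary, triangles mark the summit and stars the largest ratio; in peak 1 of Stat92E the summit is at -62.5 bp, at the edge of the interval.

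Among the 30 genes of the target table, Socs36E had the most peaks. It was second by summed ChIP reads, with 2259.6, far below hyd with 213858. The sum grows with the number and length of the peaks. Per 100 bp of peak, Socs36E had 188 ChIP reads, dome 293 and Stat92E 132, and hyd was still far above them with 2265. The input of hyd was also the highest of the 30 genes, with 628.6 normalized reads. By summed ChIP reads, the receptor gene dome was at position 5 with its only peak, and Stat92E was at position 8. The median of the other 27 genes was 251 reads. Of 13 further pathway genes and reported targets, 2 are tied to listed peaks by the table. The self-renewal factor gene chinmo had 1 peak with 113 ChIP reads against 1.45 in the input. The gene wdp, which encodes a leucine-rich repeat transmembrane protein, had 3 peaks that together held 345 ChIP reads and 4.36 input reads, a 79.1-fold enrichment (95% interval 38.9 to 191). Each of these genes thus had fewer ChIP reads than Socs36E, dome or Stat92E. The other 11, among them hop, which encodes the kinase, the ligand genes upd, upd2 and upd3, and the phosphatase gene Ptp61F, were not looked up because the list names no gene.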

How the data were processed

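Per the labels, reads were processed with CASAVA 1.8 and Bowtie (roles not given) on dm3. The peak caller is not given in the sources used here. The authors deposited 1 peak list called on 1 ChIP and 1 input library. It holds a signal per library (normalized read number per peak), the largest log2 ratio, the -log10 of the smallest Poisson p, an FDR (a q-value whose computation is not stated) and a test statistic (a deposited score). The authors' pseudocount and scaling bear on the ratio of peaks with little input.

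Peaks were matched to the intervals of the study's target table by equal chromosome, start and end. Members and lists were chosen with earlier results of these data known. Folds are normalized ChIP over input reads, and their intervals are Clopper-Pearson intervals given the total reads, in which parts of a read entered as parts. Ratios of folds have exact conditional intervals of whole reads. Where the input was 1 to 3 reads, the ratio with its interval replaced the planned lower bound, which would have set the input to 3 reads. Ranks and distances were computed over the whole list, and no test between groups was made. Alternatives were other overlap rules, thresholds, ranks, pseudocounts and joining distances. The fold intervals and the joining were tested on simulated data. The simulated reads were independent, with more input reads on average than the peaks with 1 to 3 input reads. The intervals of ratios of folds and of shares were not tested in this way. Depth per sample is unknown. STAT92E sites in the sequence were not counted, since no dm3 genome was used here. Named genes are the 3 genes, and those of 13 pathway genes that the table ties to a peak. The other genes named are neighbours in gene order, or hyd, chosen after its values were seen. Python 3.11.15, numpy 2.4.6, pandas 2.3.3, scipy 1.17.1 and matplotlib 3.10.9 were used.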

Additional observations from a re-analysis of the deposited data

How the results depend on the processing

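All 8 peaks were found under every alternative tried (an overlap of at least 1 bp, the peak centre in the interval, an FDR of 0 or below 0.001, a Poisson p of 0.0001, and the chromosome arms only). None of these alternatives could have lost a peak, so this is no sign of robustness. Equal intervals also overlap, and all 8 peaks lie on the arms with an FDR of 0 and a -log10 p of at least 84.4. The number of peaks in the first 10% of the list was 2 by its order and 2 on the chromosome arms. It was 5 by ChIP reads, 5 by ChIP reads per bp and 0 by the Poisson p, where 402 peaks tied at the limit share an average rank outside the first 148. The folds of the 3 genes stayed within their counting intervals with a pseudocount of 1 or 0.5, with the strongest peak only and with the largest listed ratio. The intervals of the 3 peaks with 1 to 3 input reads are so wide that staying inside them says little. With a pseudocount of 1 the fold was 64.2 in place of 151 for peak 2 of Socs36E, 54.4 in place of 136 for peak 5 and 35.1 in place of 71.1 for peak 1 of Stat92E. When peaks were joined within 5 kb, the dome peak stood alone, a group of 1 peak in place of 2, and the peaks of Stat92E fell into 2 groups. Another bound of these 3 peaks, added after seeing the data, takes the ChIP reads as fixed and the input at its one-sided 95% Poisson upper limit. It was 36.7-fold and 31.0-fold for peaks 2 and 5 of Socs36E and 20.2-fold for peak 1 of Stat92E, above the lower ends of the two-sided intervals (30.8, 25.8 and 16.8). The number of input reads limits all folds. Alternatives that needed a genome or promoter sequence were not run. No paired analysis was possible because the series holds 1 library of each kind.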
